A study of Xenopus laevis with 6 samples.

Results

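In the hind limb bud of the frog Xenopus laevis, 45 genes had an L copy and an S copy that ran in opposite directions between the distal and the proximal segment. X. laevis is an allotetraploid: its genome joins the chromosome sets of a pair of ancestral species, and many genes are therefore present as a pair of related copies, called homeologs, on a long (L) and a short (S) chromosome of each kind. The copies of a pair keep similar protein products in many cases, while their regulation can diverge. The limb bud grows out from the body wall, and its distal end lays down the foot while its proximal end lays down the thigh.

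The pairs were chosen by their measured levels. Counts were divided by the library total and given as CPM, the usual scale of counts corrected for library depth. A gene was eligible where the authors' deposited table of differential expression gave its .L and its .S copy 1 gene ID each, and where each copy reached at least 1 CPM in its higher segment. That table names only genes that the authors called in at least 1 comparison, so the pairs considered are pairs in which both copies had already been called. A pair was taken where the log2 ratio of the distal to the proximal mean CPM, after adding 0.1 CPM to both, was at least 0.8 in one copy and at most -0.8 in the other. Of 1168 eligible pairs, 45 met this rule, which makes 90 gene copies among 51061 gene IDs in the count table. In 20 pairs the L copy was the one higher in distal, and in 25 pairs the S copy was. Pairs were formed by name, and whether the copies named dlc1 and those named camk2b are homeologs is uncertain. The distal to proximal values below describe the choice and carry no test.

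Wild-type tadpoles at stage 51 gave 3 groups, the distal, the medial and the proximal segment of the untreated hind limb bud, with 2 pooled libraries of 30 hind limbs per segment and 1 ug of total RNA per library. Nothing in the labels says that the pools came from separate clutches, so p-values measure the spread between these pools, which may be technical. Totals ran between 10815041 and 35479915 counted fragments per library, and 3 counts corresponded to 0.0846 to 0.277 CPM. Known segment genes went with the labels: hoxa13.L, a determinant of the foot, measured 219 and 212 CPM in distal and 13.5 and 11.3 CPM in proximal pools, while meis2.L, a gene of the proximal limb, measured 27.9 and 32.4 CPM in distal and 235 and 262 CPM in proximal pools. Both copies of prrx1, a marker of limb mesenchyme, lay between 178 and 362 CPM in the 6 libraries. In whole segments, fewer cells of a type and less RNA per cell cannot be told apart.

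**Figure D1:**
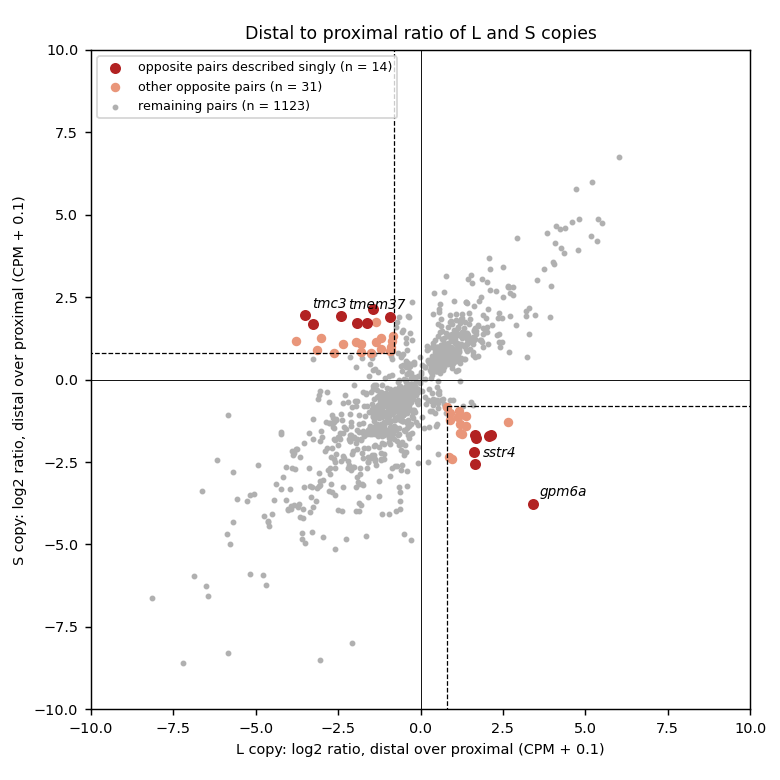
Each point is 1 of the 1168 eligible pairs, with the log2 ratio of distal to proximal mean CPM (plus 0.1) of the L copy on the x axis and of the S copy on the y axis; dashed lines mark 0.8 and -0.8. Most pairs follow the diagonal, and the 45 opposite pairs fill the upper left and lower right corners, with gpm6a farthest out.

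Opposite directions were the exception among the eligible pairs. Signs differed between the copies in 139 of 1168 pairs (11.9%), and only the 45 pairs passed 0.8 in both copies in opposite directions, as the plot of L against S ratios shows. In edgeR's fit the absolute log2 ratios of the 90 copies lay between 0.70 and 4.15, and 26 copies differed by 4-fold or more. In all 90 copies both pools of one segment lay on the same side of both pools of the other. Pools of the ends overlapped in only 62 of the 2246 copies of the other eligible pairs. Both counts use the values behind the rule and are given as a description. The account that follows takes 14 pairs singly, 13 of which have the largest ratios in their less divergent copy, and then the other 31 pairs by role. Roles are given as known from mammalian genes. Positions are those of the authors' count table, whose genome build is not given in the sources used here, and ratios with a standard error (SE) are fitted log2 ratios of distal over proximal from edgeR.

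A peptide hormone and receptors for peptide hormones were among the pairs. adcyap1 encodes PACAP, a neuropeptide of the secretin and glucagon family that acts through receptors coupled to G proteins. adcyap1 is annotated on chromosome 6L from 107717079 to 107727177 on the minus strand (L) and chromosome 6S from 85298341 to 85309509 on the minus strand (S). adcyap1.L measured 3.08 and 3.19 CPM in the distal pools, 1.37 and 2.14 CPM in the medial pools and 0.555 and 0.705 CPM in the proximal pools. adcyap1.S measured 0.173 and 0.425 CPM in the distal pools, 1.26 and 1.37 CPM in the medial pools and 1.48 and 0.902 CPM in the proximal pools. Distal pools were highest in the L copy and lowest in the S copy, with no overlap between distal and proximal pools in either. Their fitted ratios were 2.17 (SE 0.32) for adcyap1.L and -2.04 (SE 0.51) for adcyap1.S. The L copy made up 91.5% ± 4.55 in distal, 56.5% ± 6.36 in medial and 35.6% ± 11.7 in proximal pools of the summed L and S CPM (SD, n = 2). Distal counts of adcyap1.S were low, and its ratio was -1.42 without distal pool 1 and -2.68 without distal pool 2. sstr4 encodes a somatostatin receptor, which inhibits adenylate cyclase. sstr4 is annotated on chromosome 5L from 1778081 to 1782145 on the plus strand (L) and chromosome 5S from 25621534 to 25624775 on the minus strand (S). sstr4.L measured 16.7 and 17.9 CPM in the distal pools, 10.3 and 10.1 CPM in the medial pools and 5.64 and 5.19 CPM in the proximal pools. sstr4.S measured 0.13 and 0.213 CPM in the distal pools, 1.19 and 0.913 CPM in the medial pools and 1.57 and 1.41 CPM in the proximal pools. The L copy was lower in each more proximal segment, and the S copy was close to the detection floor in distal, with 3 counts in each pool. Fitted ratios came to 1.62 (SE 0.14) for sstr4.L and -3.2 (SE 0.47) for sstr4.S. L copies took 99% ± 0.282 in distal, 90.6% ± 1.52 in medial and 78.4% ± 0.302 in proximal pools of the pair. From the counts and library totals, the S copy was 8.97-fold higher in proximal than in distal pools. Its exact 95% interval of 3.91 to 25.3 covers counting error only. The pair was chosen by this difference, so the interval is a description and not a test. oxtr encodes the oxytocin receptor, which signals through calcium release. oxtr is annotated on chromosome 4L from 125429958 to 125475623 on the minus strand (L) and chromosome 4S from 103885254 to 103924405 on the minus strand (S). oxtr.L measured 0.303 and 0.425 CPM in the distal pools, 0.351 and 0.421 CPM in the medial pools and 1.39 and 1.3 CPM in the proximal pools. oxtr.S measured 2.08 and 2.2 CPM in the distal pools, 1.12 and 0.948 CPM in the medial pools and 0.647 and 0.507 CPM in the proximal pools. Here the S copy was the distal one, and the L copy was higher in both proximal pools than in the 4 others. The ratios were -1.96 (SE 0.41) for oxtr.L and 1.89 (SE 0.33) for oxtr.S. The L share was 14.5% ± 2.47 in distal, 27.3% ± 4.92 in medial and 70% ± 2.61 in proximal pools.

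Proteins of the neuronal membrane and of ion flux formed a further group. gpm6a encodes a membrane glycoprotein of the proteolipid family that promotes filopodia and neurite growth. gpm6a is annotated on chromosome 1L from 41337867 to 41429216 on the plus strand (L) and chromosome 1S from 36700585 to 36780652 on the plus strand (S). gpm6a.L measured 43.1 and 42.5 CPM in the distal pools, 3.93 and 1.93 CPM in the medial pools and 4.25 and 3.66 CPM in the proximal pools. gpm6a.S measured 0.52 and 0.638 CPM in the distal pools, 2.6 and 2.81 CPM in the medial pools and 10.1 and 8.09 CPM in the proximal pools. The L copy stood about as low in medial as in proximal pools and far above both in distal pools, while the S copy was higher in each more proximal segment. These were the widest opposite ratios of the set, 3.4 (SE 0.25) for gpm6a.L and -4.04 (SE 0.27) for gpm6a.S. The L copy supplied 98.7% ± 0.202 in distal, 50.5% ± 13.8 in medial and 30.4% ± 1.06 in proximal pools of the pair's CPM. syt3 encodes a synaptotagmin, a membrane protein that binds calcium and takes part in vesicle fusion. syt3 is annotated on chromosome 7L from 104716385 to 104859218 on the minus strand (L) and chromosome 7S from 76731322 to 76876990 on the minus strand (S). syt3.L measured 4.25 and 4.39 CPM in the distal pools, 0.491 and 0.667 CPM in the medial pools and 1.2 and 1.38 CPM in the proximal pools. syt3.S measured 0.737 and 1.49 CPM in the distal pools, 2.74 and 2.95 CPM in the medial pools and 3.51 and 4.12 CPM in the proximal pools. Medial pools were lowest and distal pools highest in the L copy, and the S copy was lowest in distal pools. Fitted ratios were 1.64 (SE 0.25) for syt3.L and -1.95 (SE 0.30) for syt3.S. Its L share was 80% ± 7.44 in distal, 16.8% ± 2.28 in medial and 25.3% ± 0.256 in proximal pools.

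tmc3 belongs to the transmembrane channel-like family, whose best known members serve hair cells of the inner ear. tmc3 is annotated on chromosome 3L from 96806259 to 96860061 on the plus strand (L) and chromosome 3S from 46538164 to 46583930 on the minus strand (S). tmc3.L measured 1.08 and 1.13 CPM in the distal pools, 5.86 and 5.3 CPM in the medial pools and 13.8 and 13.6 CPM in the proximal pools. tmc3.S measured 1.47 and 1.63 CPM in the distal pools, 1.54 and 1.4 CPM in the medial pools and 0.277 and 0.366 CPM in the proximal pools. tmc3.L was higher in each more proximal segment, and the S copy was as high in medial as in distal pools and low in proximal pools. The fit gave -3.69 (SE 0.19) for tmc3.L and 2.09 (SE 0.37) for tmc3.S. With 0.277 CPM, tmc3.S was close to the detection floor in proximal pool 1. In share of the pair, the L copy held 41.7% ± 0.953 in distal, 79.1% ± 0.0632 in medial and 97.7% ± 0.458 in proximal pools. tmem37 encodes a protein related to the gamma subunits of voltage-gated calcium channels. tmem37 is annotated on chromosome 9_10L from 45179177 to 45188874 on the plus strand (L) and chromosome 9_10S from 41158881 to 41164302 on the plus strand (S). tmem37.L measured 3.47 and 3.61 CPM in the distal pools, 25.9 and 33.9 CPM in the medial pools and 17.5 and 21.3 CPM in the proximal pools. tmem37.S measured 0.997 and 1.91 CPM in the distal pools, 0.948 and 0.738 CPM in the medial pools and 0.37 and 0.254 CPM in the proximal pools. The L copy was highest in the medial pools, and all 4 medial and proximal pools lay above both distal pools; the S copy stayed under 2 CPM. The ratios were -2.54 (SE 0.17) for tmem37.L and 2.2 (SE 0.49) for tmem37.S. L made up 71.5% ± 8.69 in distal, 97.2% ± 0.991 in medial and 98.4% ± 0.634 in proximal pools. In each library L was the higher copy.

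**Figure D2:**
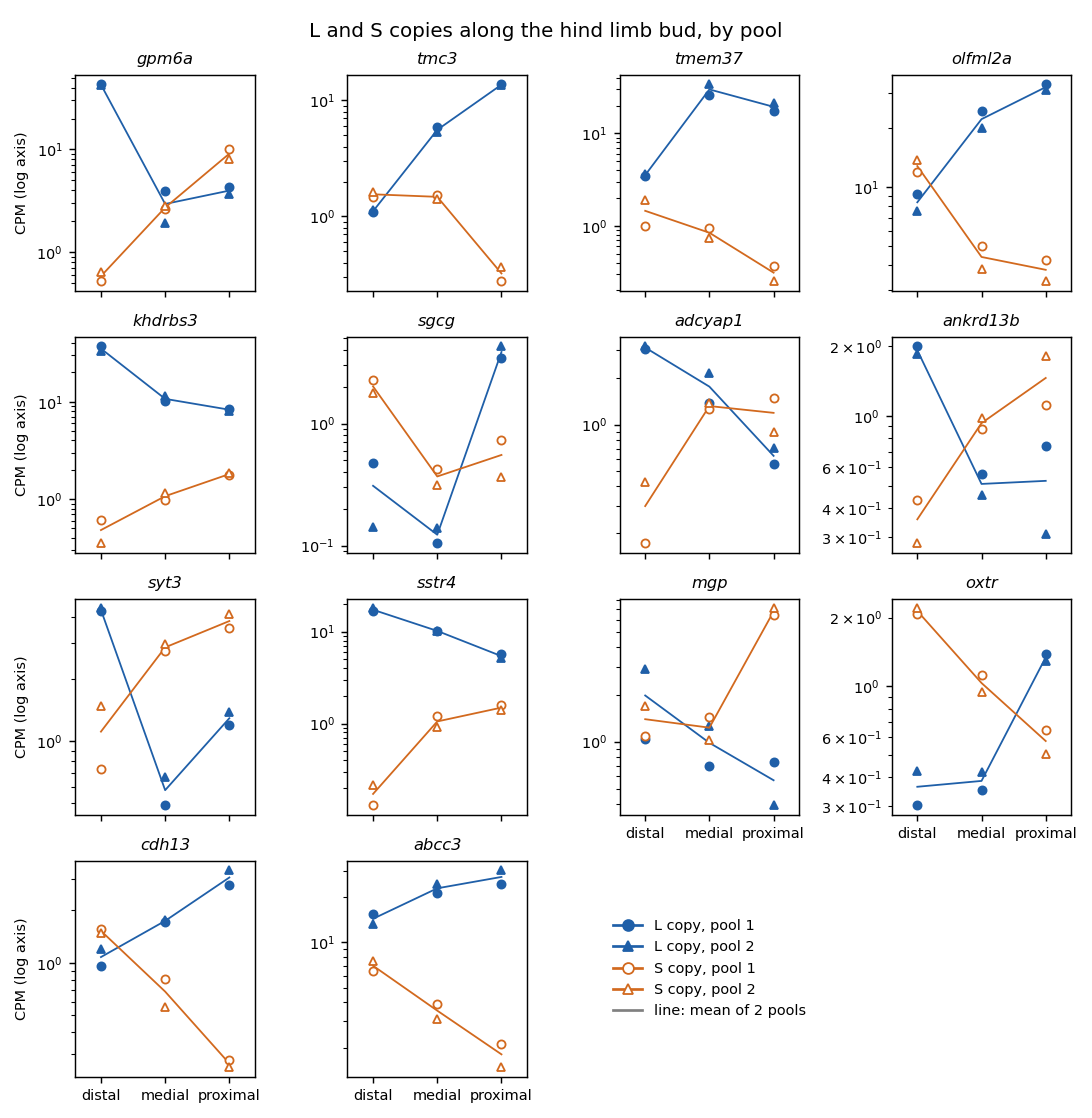
CPM on a log axis (each panel has its own range) for the L copy (filled) and the S copy (open) of the 14 pairs described singly, in the distal, medial and proximal segments; circles are pool 1, triangles pool 2, lines join the means of the 2 pools. The lines of L and S run in opposite directions between distal and proximal in each panel. The medial means lie below both ends for the L copies of gpm6a, syt3, sgcg and, by little, ankrd13b, and for the S copies of mgp and sgcg.

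Matrix, adhesion and muscle membrane proteins supplied 4 pairs. mgp encodes matrix Gla protein, a secreted inhibitor of calcification in cartilage and vessels. mgp is annotated on chromosome 4L from 122238967 to 122247121 on the minus strand (L) and chromosome 4S from 100936385 to 100944765 on the minus strand (S). mgp.L measured 1.04 and 2.91 CPM in the distal pools, 0.702 and 1.26 CPM in the medial pools and 0.74 and 0.395 CPM in the proximal pools. mgp.S measured 1.08 and 1.7 CPM in the distal pools, 1.44 and 1.02 CPM in the medial pools and 6.47 and 7.1 CPM in the proximal pools. The S copy was higher in both proximal pools than in the 4 others; the L copy was low throughout. Ratios came to 1.84 (SE 0.59) for mgp.L and -2.42 (SE 0.27) for mgp.S. The L share was 56% ± 9.97 in distal, 44.1% ± 16 in medial and 7.76% ± 3.53 in proximal pools. Without distal pool 1 the ratio of mgp.L was 2.47, without distal pool 2 it was 1.01, and without proximal pool 2 it was 1.22. olfml2a encodes a secreted protein with an olfactomedin domain. olfml2a is annotated on chromosome 8L from 10314848 to 10365749 on the plus strand (L) and chromosome 8S from 40164850 to 40234921 on the plus strand (S). olfml2a.L measured 9.23 and 7.51 CPM in the distal pools, 24.5 and 19.9 CPM in the medial pools and 33.4 and 31.3 CPM in the proximal pools. olfml2a.S measured 11.9 and 13.7 CPM in the distal pools, 4.98 and 3.83 CPM in the medial pools and 4.25 and 3.33 CPM in the proximal pools. In CPM the copies crossed: S was the higher copy in both distal pools and L in the 4 medial and proximal pools. CPM is not divided by length, and the counted length is 3889 bases for L and 5916 bases for S. Whether the copies also cross per length was not tested. The fitted values were -2.0 (SE 0.15) for olfml2a.L and 1.73 (SE 0.20) for olfml2a.S. L accounted for 39.5% ± 5.8 in distal, 83.5% ± 0.566 in medial and 89.5% ± 1.19 in proximal pools.

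cdh13 encodes T-cadherin, an adhesion molecule held in the membrane by a lipid anchor. cdh13 is annotated on chromosome 4L from 51862200 to 52387437 on the minus strand (L) and chromosome 4S from 43505539 to 43884776 on the minus strand (S). cdh13.L measured 0.953 and 1.2 CPM in the distal pools, 1.72 and 1.76 CPM in the medial pools and 2.77 and 3.38 CPM in the proximal pools. cdh13.S measured 1.56 and 1.49 CPM in the distal pools, 0.807 and 0.562 CPM in the medial pools and 0.277 and 0.254 CPM in the proximal pools. The copies crossed in the same way as those of olfml2a, with medial pools between distal and proximal pools in both copies. Fitted ratios were -1.64 (SE 0.27) for cdh13.L and 2.47 (SE 0.42) for cdh13.S. Proximal counts of cdh13.S were low, 3 in pool 1 and 9 in pool 2. Of the summed CPM, L held 41.3% ± 4.81 in distal, 71.9% ± 5.45 in medial and 92% ± 1.49 in proximal pools. The exons of cdh13.L overlap another annotated gene, and the counting did not use strand. Fragments that fitted both genes were not counted, so cdh13.L may be undercounted. sgcg encodes gamma-sarcoglycan, part of the dystrophin-associated complex of the muscle membrane. sgcg is annotated on chromosome 2L from 160755957 to 160877845 on the minus strand (L) and chromosome 2S from 140040675 to 140172235 on the minus strand (S). sgcg.L measured 0.477 and 0.142 CPM in the distal pools, 0.105 and 0.141 CPM in the medial pools and 3.42 and 4.28 CPM in the proximal pools. sgcg.S measured 2.25 and 1.77 CPM in the distal pools, 0.421 and 0.316 CPM in the medial pools and 0.74 and 0.366 CPM in the proximal pools. sgcg.L was near the detection floor in distal and medial pools and above 3 CPM in both proximal pools, and the S copy was highest in distal pools. The ratios were -3.56 (SE 0.39) for sgcg.L and 2.04 (SE 0.40) for sgcg.S. The L share was 12.4% ± 7.11 in distal, 25.4% ± 7.62 in medial and 87.2% ± 7.0 in proximal pools. Without distal pool 1 the ratio of sgcg.L was -4.81, and without proximal pool 2 that of sgcg.S was 1.37. Of 21 skeletal muscle markers listed, 13 genes had a name (20 copies, none a member). These copies summed to 44.2 and 28.1 CPM in distal, 63.7 and 67.1 CPM in medial and 116 and 144 CPM in proximal pools. Distal pools had no counts of myog.L, myog.S and pax7.L. Of the 20 copies, 17 were called lower in distal and none higher. Names come from genes the authors called, and 49.0% of all named genes tested were called lower in distal and 39.3% higher. The part of muscle cells in the sgcg values was not tested.

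An exporter, an RNA-binding protein and an ankyrin repeat protein completed the 14 pairs. abcc3 encodes an exporter of organic anions and bile salts. abcc3 is annotated on chromosome 9_10L from 38501582 to 38559161 on the plus strand (L) and chromosome 9_10S from 35065941 to 35121529 on the plus strand (S). abcc3.L measured 15.5 and 13.3 CPM in the distal pools, 21.2 and 24.5 CPM in the medial pools and 24.3 and 30.1 CPM in the proximal pools. abcc3.S measured 6.5 and 7.51 CPM in the distal pools, 3.93 and 3.13 CPM in the medial pools and 2.13 and 1.49 CPM in the proximal pools. Both copies had their medial mean between the ends, and the L copy was the higher one in all 6 libraries. Fitted ratios were -1.0 (SE 0.13) for abcc3.L and 1.97 (SE 0.24) for abcc3.S. Its L share was 67.1% ± 4.66 in distal, 86.5% ± 3.04 in medial and 93.6% ± 2.34 in proximal pools. khdrbs3 encodes an RNA-binding protein of the STAR family that regulates splicing. khdrbs3 is annotated on chromosome 6L from 146843399 to 146931638 on the plus strand (L) and chromosome 6S from 122009190 to 122100722 on the plus strand (S). khdrbs3.L measured 37.1 and 33.2 CPM in the distal pools, 10.1 and 11.3 CPM in the medial pools and 8.51 and 8.06 CPM in the proximal pools. khdrbs3.S measured 0.607 and 0.354 CPM in the distal pools, 0.983 and 1.16 CPM in the medial pools and 1.76 and 1.86 CPM in the proximal pools. In all 6 libraries L was the higher copy, and the S copy stayed under 2 CPM. The fit gave 2.03 (SE 0.12) for khdrbs3.L and -1.91 (SE 0.36) for khdrbs3.S. L copies formed 98.7% ± 0.392 in distal, 90.9% ± 0.269 in medial and 82.1% ± 1.15 in proximal pools. ankrd13b encodes an ankyrin repeat protein that binds ubiquitin and acts in endocytosis. ankrd13b is annotated on chromosome 2L from 31474960 to 31590303 on the minus strand (L) and chromosome 2S from 5320653 to 5431709 on the plus strand (S). ankrd13b.L measured 1.99 and 1.84 CPM in the distal pools, 0.562 and 0.457 CPM in the medial pools and 0.74 and 0.31 CPM in the proximal pools. ankrd13b.S measured 0.433 and 0.283 CPM in the distal pools, 0.878 and 0.983 CPM in the medial pools and 1.11 and 1.8 CPM in the proximal pools. Both copies stayed under 2 CPM, and the L copy was the higher one in both distal pools only. Ratios were 2.09 (SE 0.42) for ankrd13b.L and -2.11 (SE 0.41) for ankrd13b.S. The share of L was 84.4% ± 3.2 in distal, 35.4% ± 5.17 in medial and 27.3% ± 17.9 in proximal pools. The L ratio was 1.28 without proximal pool 2.

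The share of the L copy sums up these differences in CPM. CPM is not divided by length, so the shares, and which copy is higher, also depend on counted length. In 13 of the 45 pairs the longer copy was 1.5 times the shorter or more. For oxtr the counted length is 4027 bases for L and 1820 bases for S. The copy with more CPM was not the same in distal and in proximal pools in 10 of the 14 pairs and in 31 of all 45 (68.9%), against 177 of the other 1123 eligible pairs (15.8%). This difference follows from the rule and is given as a description. The exceptions among the 14 are tmem37, khdrbs3, sstr4 and abcc3, in which the L copy was the higher one at both ends.

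**Figure D3:**
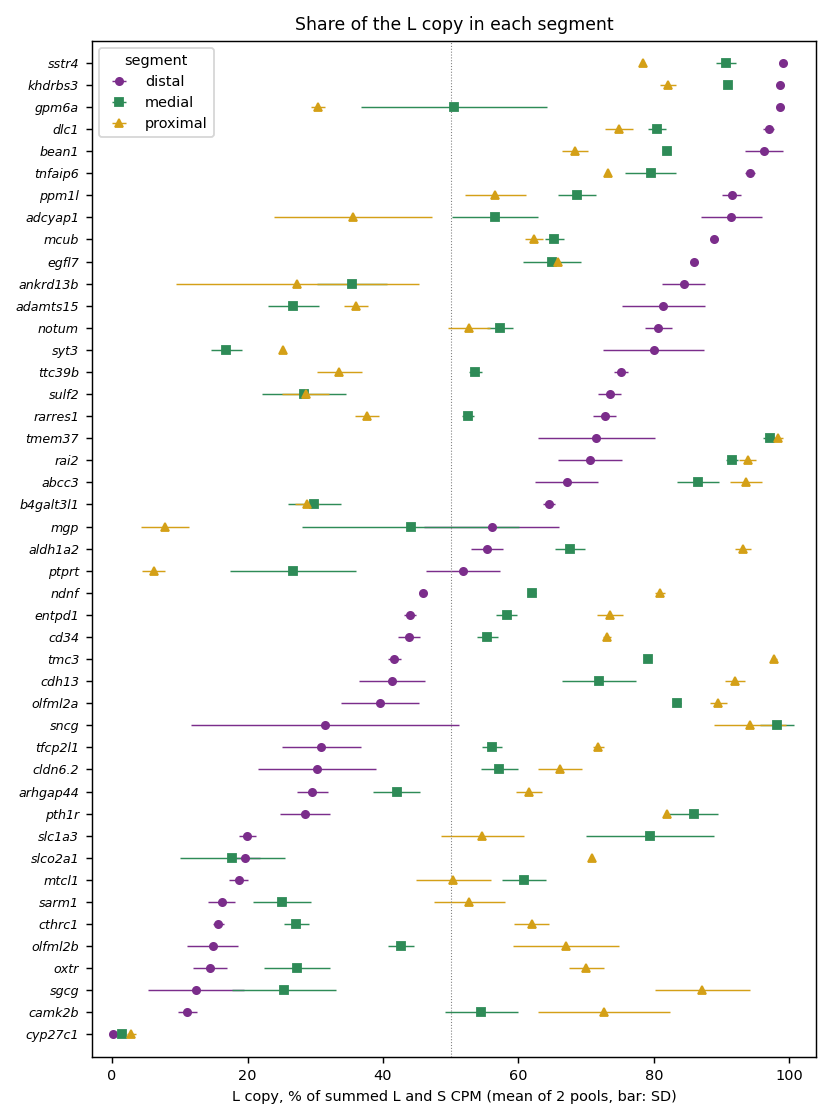
Share of the L copy in the summed L and S CPM of each of the 45 pairs, in percent, for distal (circles), medial (squares) and proximal (triangles) segments; points are means of 2 pools and bars the SD, and genes are ordered by the distal share. For gpm6a the points lie at 98.7% in distal and 30.4% in proximal, and many rows cross the dotted line at 50%. CPM is not divided by length.

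The remaining 31 pairs are given by their mean and SD (n = 2 pools per segment). Among them, aldh1a2, cyp27c1, rarres1 and rai2 belong to retinoid metabolism or are named for their response to retinoic acid. aldh1a2 encodes the dehydrogenase that makes retinoic acid, a signal of the proximal limb. aldh1a2.L averaged 16.4 ± 0.613 CPM in distal, 7.78 ± 1.06 CPM in medial and 101 ± 7.32 CPM in proximal pools, with a fitted log2 ratio of -2.7 (SE 0.11). aldh1a2.S averaged 13.2 ± 0.744 CPM in distal, 3.7 ± 0.123 CPM in medial and 7.46 ± 1.92 CPM in proximal pools, with a fitted log2 ratio of 0.70 (SE 0.17). cyp27c1 encodes the enzyme that turns retinol into its dehydro form. cyp27c1.L averaged 0.38 ± 0.137 CPM in distal, 2.23 ± 0.423 CPM in medial and 4.13 ± 0.698 CPM in proximal pools, with a fitted log2 ratio of -3.38 (SE 0.35). cyp27c1.S averaged 265 ± 5.44 CPM in distal, 149.7 ± 14.9 CPM in medial and 142 ± 11.4 CPM in proximal pools, with a fitted log2 ratio of 0.83 (SE 0.10). In cyp27c1 the L copy was the minor one at all positions. rarres1.L averaged 18.9 ± 0.394 CPM in distal, 8.99 ± 0.295 CPM in medial and 10.2 ± 1.14 CPM in proximal pools, with a fitted log2 ratio of 0.85 (SE 0.13). rarres1.S averaged 7.1 ± 0.482 CPM in distal, 8.13 ± 0.0277 CPM in medial and 16.8 ± 0.627 CPM in proximal pools, with a fitted log2 ratio of -1.32 (SE 0.13). rarres1 and rai2 are named as genes induced by retinoic acid, and the direction of their copies differed from each other. rai2.L averaged 15.4 ± 2.08 CPM in distal, 24 ± 0.877 CPM in medial and 54.2 ± 3.99 CPM in proximal pools, with a fitted log2 ratio of -1.87 (SE 0.12). rai2.S averaged 6.39 ± 0.582 CPM in distal, 2.23 ± 0.324 CPM in medial and 3.52 ± 0.527 CPM in proximal pools, with a fitted log2 ratio of 0.75 (SE 0.20). In aldh1a2 and rai2 the L copy was the proximal one, with the larger ratio, and in rarres1 it was the distal one.

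Secreted modifiers of signals and matrix supplied a further set. notum encodes an esterase that inactivates Wnt ligands. notum.L averaged 40.5 ± 5.5 CPM in distal, 16.3 ± 1.86 CPM in medial and 21.9 ± 2.03 CPM in proximal pools, with a fitted log2 ratio of 0.83 (SE 0.13). notum.S averaged 9.66 ± 0.0633 CPM in distal, 12.3 ± 2.33 CPM in medial and 19.6 ± 0.656 CPM in proximal pools, with a fitted log2 ratio of -1.09 (SE 0.15). sulf2 encodes a sulfatase that trims heparan sulfate outside the cell. sulf2.L averaged 105.4 ± 4.33 CPM in distal, 48.4 ± 1.52 CPM in medial and 40.1 ± 2.48 CPM in proximal pools, with a fitted log2 ratio of 1.32 (SE 0.09). sulf2.S averaged 38.1 ± 1.7 CPM in distal, 126 ± 34.6 CPM in medial and 102 ± 23.6 CPM in proximal pools, with a fitted log2 ratio of -1.5 (SE 0.22). adamts15 encodes a metalloproteinase that cleaves proteoglycans. adamts15.L averaged 4.36 ± 0.453 CPM in distal, 2.63 ± 0.348 CPM in medial and 1.84 ± 0.508 CPM in proximal pools, with a fitted log2 ratio of 1.1 (SE 0.24). adamts15.S averaged 0.992 ± 0.30 CPM in distal, 7.22 ± 0.42 CPM in medial and 3.23 ± 0.649 CPM in proximal pools, with a fitted log2 ratio of -1.88 (SE 0.28). tnfaip6 encodes a protein that binds hyaluronan. tnfaip6.L averaged 123 ± 0.428 CPM in distal, 35.2 ± 7.71 CPM in medial and 53.4 ± 5.75 CPM in proximal pools, with a fitted log2 ratio of 1.13 (SE 0.15). tnfaip6.S averaged 7.63 ± 0.972 CPM in distal, 8.88 ± 0.102 CPM in medial and 19.6 ± 1.86 CPM in proximal pools, with a fitted log2 ratio of -1.4 (SE 0.14). In these 4 pairs the L copy was the distal one and the S copy the proximal one, and the medial pools of sulf2.S and adamts15.S lay above those of both ends on average. cthrc1 encodes a secreted collagen repeat protein. cthrc1.L averaged 6.17 ± 0.697 CPM in distal, 3.46 ± 0.572 CPM in medial and 16 ± 0.716 CPM in proximal pools, with a fitted log2 ratio of -1.45 (SE 0.16). cthrc1.S averaged 33.1 ± 1.78 CPM in distal, 9.22 ± 0.674 CPM in medial and 9.79 ± 0.631 CPM in proximal pools, with a fitted log2 ratio of 1.67 (SE 0.12). ndnf encodes a secreted neurotrophic factor. ndnf.L averaged 37.5 ± 0.663 CPM in distal, 34.9 ± 1.4 CPM in medial and 107 ± 10.1 CPM in proximal pools, with a fitted log2 ratio of -1.58 (SE 0.10). ndnf.S averaged 44.2 ± 0.732 CPM in distal, 21.3 ± 0.365 CPM in medial and 25.2 ± 1.11 CPM in proximal pools, with a fitted log2 ratio of 0.75 (SE 0.10). olfml2b is a relative of olfml2a. olfml2b.L averaged 0.91 ± 0.184 CPM in distal, 2.33 ± 0.372 CPM in medial and 5.02 ± 0.828 CPM in proximal pools, with a fitted log2 ratio of -2.52 (SE 0.27). olfml2b.S averaged 5.25 ± 0.496 CPM in distal, 3.16 ± 0.744 CPM in medial and 2.44 ± 0.467 CPM in proximal pools, with a fitted log2 ratio of 1.09 (SE 0.25). The S copy was the distal one in cthrc1, ndnf and olfml2b, as in olfml2a.

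Genes of blood vessels, receptors and cell surfaces were also present. egfl7 encodes a protein secreted by endothelial cells. egfl7.L averaged 34.2 ± 1.21 CPM in distal, 10.7 ± 1.01 CPM in medial and 19.4 ± 1.15 CPM in proximal pools, with a fitted log2 ratio of 0.74 (SE 0.11). egfl7.S averaged 5.58 ± 0.229 CPM in distal, 5.76 ± 0.548 CPM in medial and 10.1 ± 0.404 CPM in proximal pools, with a fitted log2 ratio of -0.93 (SE 0.15). cd34 encodes a sialomucin of endothelial and blood progenitor cells. cd34.L averaged 87.2 ± 3.21 CPM in distal, 112 ± 7.34 CPM in medial and 162 ± 16.9 CPM in proximal pools, with a fitted log2 ratio of -0.96 (SE 0.10). cd34.S averaged 112 ± 3.56 CPM in distal, 90.2 ± 0.354 CPM in medial and 59.5 ± 4.57 CPM in proximal pools, with a fitted log2 ratio of 0.84 (SE 0.10). entpd1 encodes an enzyme that degrades extracellular ATP. entpd1.L averaged 21.2 ± 1.93 CPM in distal, 25.1 ± 1.46 CPM in medial and 40.6 ± 1.71 CPM in proximal pools, with a fitted log2 ratio of -1.0 (SE 0.11). entpd1.S averaged 26.9 ± 1.53 CPM in distal, 18 ± 2.18 CPM in medial and 14.7 ± 2.03 CPM in proximal pools, with a fitted log2 ratio of 0.84 (SE 0.14). cd34 and egfl7 had opposite arrangements, with the S copy distal in cd34 and the L copy distal in egfl7. Of 11 endothelial markers listed, 3 genes had a name, egfl7 among them. The other named markers (3 copies, none a member) were all called lower in distal, against 49.0% of all named genes. They summed to 28.5 and 27.5 CPM in distal, 29.9 and 30.9 CPM in medial and 52.2 and 48.3 CPM in proximal pools. The part of endothelial cells in these pairs was not tested. pth1r encodes the receptor for parathyroid hormone and its related peptide, which paces growth plate cartilage. pth1r.L averaged 0.492 ± 0.206 CPM in distal, 0.843 ± 0.050 CPM in medial and 2.21 ± 0.41 CPM in proximal pools, with a fitted log2 ratio of -2.25 (SE 0.38). pth1r.S averaged 1.21 ± 0.297 CPM in distal, 0.141 ± 0.0497 CPM in medial and 0.489 ± 0.0933 CPM in proximal pools, with a fitted log2 ratio of 1.28 (SE 0.42). ptprt encodes a receptor tyrosine phosphatase. ptprt.L averaged 7.98 ± 0.966 CPM in distal, 1.54 ± 0.347 CPM in medial and 1.19 ± 0.283 CPM in proximal pools, with a fitted log2 ratio of 2.79 (SE 0.27). ptprt.S averaged 7.41 ± 0.741 CPM in distal, 4.37 ± 1.12 CPM in medial and 18.2 ± 0.956 CPM in proximal pools, with a fitted log2 ratio of -1.38 (SE 0.17). cldn6.2 is a claudin, a tight junction protein. cldn6.2.L averaged 5.19 ± 1.42 CPM in distal, 10.3 ± 2.83 CPM in medial and 9.3 ± 0.474 CPM in proximal pools, with a fitted log2 ratio of -0.89 (SE 0.24). cldn6.2.S averaged 12 ± 1.66 CPM in distal, 7.64 ± 1.26 CPM in medial and 4.77 ± 0.447 CPM in proximal pools, with a fitted log2 ratio of 1.28 (SE 0.18). pth1r and cldn6.2 had the S copy distal, and ptprt the L copy. Of 14 cartilage markers listed, 11 genes had a name (17 copies). These copies summed to 1434 and 1437 CPM in distal, 1940 and 2132 CPM in medial and 2518 and 2983 CPM in proximal pools. Of them, 15 were called lower in distal and none higher, against 49.0% and 39.3% of all named genes. The part of cartilage cells in the pth1r values was not tested.

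Transporters and proteins inside the cell made up the rest. slc1a3 encodes a glutamate transporter of glia. slc1a3.L averaged 0.859 ± 0.0115 CPM in distal, 1.83 ± 0.199 CPM in medial and 2.11 ± 0.029 CPM in proximal pools, with a fitted log2 ratio of -1.35 (SE 0.29). slc1a3.S averaged 3.45 ± 0.227 CPM in distal, 0.474 ± 0.223 CPM in medial and 1.77 ± 0.409 CPM in proximal pools, with a fitted log2 ratio of 0.82 (SE 0.29). slco2a1 encodes a prostaglandin transporter. slco2a1.L averaged 0.293 ± 0.014 CPM in distal, 0.509 ± 0.124 CPM in medial and 1.27 ± 0.434 CPM in proximal pools, with a fitted log2 ratio of -2.02 (SE 0.48). slco2a1.S averaged 1.2 ± 0.105 CPM in distal, 2.49 ± 0.744 CPM in medial and 0.521 ± 0.179 CPM in proximal pools, with a fitted log2 ratio of 1.28 (SE 0.43). mcub encodes an inhibitory subunit of the mitochondrial calcium uniporter. mcub.L averaged 37.7 ± 3.37 CPM in distal, 19 ± 0.316 CPM in medial and 17.2 ± 0.852 CPM in proximal pools, with a fitted log2 ratio of 1.06 (SE 0.11). mcub.S averaged 4.73 ± 0.67 CPM in distal, 10.1 ± 0.451 CPM in medial and 10.4 ± 1.09 CPM in proximal pools, with a fitted log2 ratio of -1.2 (SE 0.16). Between the ends, the S copy was higher in distal in both membrane carriers, and the L copy in mcub. The medial mean of slco2a1.S lay above both ends. camk2b encodes a kinase activated by calcium and calmodulin. camk2b.L averaged 0.908 ± 0.119 CPM in distal, 3.07 ± 0.671 CPM in medial and 8.01 ± 1.26 CPM in proximal pools, with a fitted log2 ratio of -3.25 (SE 0.26). camk2b.S averaged 7.25 ± 0.0361 CPM in distal, 2.53 ± 0.00090 CPM in medial and 2.99 ± 1.0 CPM in proximal pools, with a fitted log2 ratio of 1.31 (SE 0.24). ppm1l encodes a protein phosphatase. ppm1l.L averaged 10.01 ± 0.676 CPM in distal, 2.95 ± 0.0983 CPM in medial and 4.11 ± 0.593 CPM in proximal pools, with a fitted log2 ratio of 1.25 (SE 0.18). ppm1l.S averaged 0.923 ± 0.103 CPM in distal, 1.35 ± 0.223 CPM in medial and 3.13 ± 0.114 CPM in proximal pools, with a fitted log2 ratio of -1.81 (SE 0.28). sarm1 encodes an enzyme that consumes NAD and drives axon degeneration. sarm1.L averaged 1.19 ± 0.217 CPM in distal, 1.69 ± 0.15 CPM in medial and 2.85 ± 0.507 CPM in proximal pools, with a fitted log2 ratio of -1.4 (SE 0.28). sarm1.S averaged 6.16 ± 0.201 CPM in distal, 5.07 ± 0.718 CPM in medial and 2.53 ± 0.0769 CPM in proximal pools, with a fitted log2 ratio of 1.22 (SE 0.20). Signalling enzymes went both ways, with the L copy distal in ppm1l and the S copy distal in camk2b and sarm1.

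Regulators of the cytoskeleton and of transcription followed the same mix. dlc1 encodes a GTPase-activating protein. dlc1.L averaged 69.8 ± 2.06 CPM in distal, 34.3 ± 4.21 CPM in medial and 36.3 ± 0.020 CPM in proximal pools, with a fitted log2 ratio of 0.87 (SE 0.10). dlc1.S averaged 2.2 ± 0.505 CPM in distal, 8.29 ± 0.35 CPM in medial and 12.2 ± 1.33 CPM in proximal pools, with a fitted log2 ratio of -2.48 (SE 0.19). arhgap44 encodes another GTPase-activating protein. arhgap44.L averaged 2.76 ± 0.408 CPM in distal, 4.32 ± 0.644 CPM in medial and 5.19 ± 0.797 CPM in proximal pools, with a fitted log2 ratio of -1.03 (SE 0.22). arhgap44.S averaged 6.55 ± 0.257 CPM in distal, 5.93 ± 0.0476 CPM in medial and 3.22 ± 0.234 CPM in proximal pools, with a fitted log2 ratio of 0.93 (SE 0.17). mtcl1 encodes a protein that crosslinks microtubules. mtcl1.L averaged 1.52 ± 0.253 CPM in distal, 4.21 ± 0.694 CPM in medial and 2.86 ± 0.264 CPM in proximal pools, with a fitted log2 ratio of -0.98 (SE 0.27). mtcl1.S averaged 6.59 ± 0.499 CPM in distal, 2.76 ± 0.818 CPM in medial and 2.88 ± 0.89 CPM in proximal pools, with a fitted log2 ratio of 1.22 (SE 0.27). tfcp2l1 encodes a transcription factor of the grainyhead family. tfcp2l1.L averaged 11.6 ± 2.34 CPM in distal, 17.1 ± 2.97 CPM in medial and 29.6 ± 0.439 CPM in proximal pools, with a fitted log2 ratio of -1.4 (SE 0.16). tfcp2l1.S averaged 26 ± 1.91 CPM in distal, 13.3 ± 1.56 CPM in medial and 11.6 ± 0.639 CPM in proximal pools, with a fitted log2 ratio of 1.08 (SE 0.12). Among these, the L copy was the distal one in dlc1 and the S copy in the others. sncg encodes gamma-synuclein, a protein of peripheral neurons. sncg.L averaged 0.528 ± 0.256 CPM in distal, 1.74 ± 0.173 CPM in medial and 8.47 ± 0.972 CPM in proximal pools, with a fitted log2 ratio of -4.15 (SE 0.31). sncg.S averaged 1.25 ± 0.563 CPM in distal, 0.0351 ± 0.0496 CPM in medial and 0.501 ± 0.447 CPM in proximal pools, with a fitted log2 ratio of 0.99 (SE 0.54). The sncg.S ratio was 0.39 without distal pool 1 and 2.69 without proximal pool 2. Of 13 nerve and Schwann cell markers listed, only 4 genes had a name (7 copies). These copies summed to 7.84 and 8.50 CPM in distal, 24.5 and 16.8 CPM in medial and 28.9 and 31.5 CPM in proximal pools. Distal pools had no counts of mpz.S, and 6 copies were called lower there, against 49.0% of all named genes. The part of nerve and Schwann cells in the values of sncg, gpm6a and syt3 was not tested. ttc39b encodes a tetratricopeptide repeat protein. ttc39b.L averaged 6.59 ± 0.30 CPM in distal, 3.32 ± 0.62 CPM in medial and 2.48 ± 0.802 CPM in proximal pools, with a fitted log2 ratio of 1.45 (SE 0.25). ttc39b.S averaged 2.18 ± 0.0215 CPM in distal, 2.88 ± 0.645 CPM in medial and 4.84 ± 0.868 CPM in proximal pools, with a fitted log2 ratio of -1.18 (SE 0.25). bean1 encodes a membrane protein that binds the ubiquitin ligase NEDD4. bean1.L averaged 7.73 ± 0.103 CPM in distal, 2.88 ± 0.992 CPM in medial and 4.23 ± 0.878 CPM in proximal pools, with a fitted log2 ratio of 0.75 (SE 0.23). bean1.S averaged 0.309 ± 0.237 CPM in distal, 0.632 ± 0.198 CPM in medial and 1.98 ± 0.583 CPM in proximal pools, with a fitted log2 ratio of -2.65 (SE 0.47). b4galt3l1 is named as a galactosyltransferase-like gene. b4galt3l1.L averaged 7.2 ± 0.44 CPM in distal, 5.35 ± 0.321 CPM in medial and 3.15 ± 0.0092 CPM in proximal pools, with a fitted log2 ratio of 1.12 (SE 0.18). b4galt3l1.S averaged 3.97 ± 0.402 CPM in distal, 12.7 ± 1.62 CPM in medial and 7.8 ± 0.694 CPM in proximal pools, with a fitted log2 ratio of -1.07 (SE 0.17). The L copy was the distal one in these last 3 pairs, and bean1.S had a ratio of -3.90 without distal pool 1.

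Values near the threshold form a continuum. The 5 pairs just inside it were rai2, cldn6.2, aldh1a2, egfl7 and ndnf, whose smaller absolute log2 ratios were 0.84, 0.83, 0.82, 0.82 and 0.81. The 4 pairs just outside were pde5a with 0.79 and gprc5cl1, igfbp2 and rhbg with 0.77 each. In pde5a, a phosphodiesterase gene, the L copy had a log2 ratio of 1.28 and the S copy of -0.79, and in gprc5cl1 the values were 1.6 for L and -0.77 for S. igfbp2, which encodes a carrier of insulin-like growth factors, was the most abundant of the 4, with a summed 2052 CPM in distal and 1562 CPM in proximal pools and ratios of 0.77 for L and -1.0 for S. In rhbg, an ammonium transporter gene, L had -1.42 and S had 0.77.

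The ratio in the rule used no medial value, but the authors' deposited table, through which pairs became eligible, also lists genes called in comparisons with the medial segment. In 38 of the 45 pairs both copies are listed there for distal against proximal, so that their choice needed no medial value, and the medial segment was tested in these. In the other 7 pairs 1 copy each, bean1.L, mtcl1.L, pth1r.S, rai2.S, slc1a3.S, slco2a1.S and sncg.S, is listed through comparisons with medial alone, and the medial values of those pairs are descriptions with no test. For each copy of the 38 pairs, the medial level was compared with the midpoint of the distal and proximal levels on the log2 scale. The test was edgeR's quasi-likelihood test, with p-values adjusted by the Benjamini-Hochberg method over 27007 genes. This contrast is uncorrelated with the difference between the ends only where both ends are equally precise. Library depth differed and some low ends had few counts, so the choice of pairs can shift the midpoint. The size of that shift was not tested. A copy called below the midpoint is nearer its lower end in the medial segment, or below both ends. In the contrast of distal against proximal, which the rule used, 29.5% of all genes were called (13.6% with distal higher and 15.9% with distal lower), 89.7% of the copies of named pairs, and 88 of the 90 copies, from which nothing is read. In the medial contrast, 9.73% of all genes were called (6.29% above the midpoint and 3.45% below; 2629 genes in all, with 1552 without distal pool 1 and 1744 without distal pool 2), and 36.5% of the 1876 copies of named L and S pairs whose 2 copies are both listed for distal against proximal. Of the 76 copies of the 38 pairs, 32 were called (42.1%), a share near that of the named pair copies.

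Copies that were higher in distal were more often called below the midpoint than above it. Of these 38 copies, 16 (42.1%) were called below the midpoint and 1 above, and 21 were not called. Among copies past 0.8 in pairs chosen by the same listing whose copies run the same way, 30.6% of 422 copies with distal higher were called below the midpoint and 4.98% above. Of the 38 copies that were lower in distal, 9 were called above the midpoint (23.7%), 6 below (15.8%), and 23 were not called, while 41.5% of 685 such copies in same-direction pairs were called above and 7.88% below. Whether these shares differ was not tested. By place alone, the medial mean lay between the ends in 24 of the 38 distal-high copies and below both in 14. In the 38 distal-low copies it lay between in 26, above both in 6 and below both in 6. Among other eligible pairs, it lay between in 546 of 966 distal-high copies, above both in 54 and below both in 366. Of their 1280 distal-low copies, it lay between in 791, above both in 362 and below both in 127. These were not held to 0.8 or to the listing, so the counts are a description.

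Several copies passed this test in the full fit and were called in each of the 6 fits that leave out 1 library. gpm6a.L lay below the midpoint, at a log2 value of -2.04 (SE 0.24, adjusted p = 0.00132), with medial pools at 3.93 and 1.93 CPM, close to proximal. syt3.L was also below, at -1.95 (SE 0.26, adjusted p = 0.000503), and its medial pools were lower than those of both ends. For khdrbs3.L the value was -0.59 (SE 0.10, adjusted p = 0.00396) and for mgp.S it was -1.22 (SE 0.25, adjusted p = 0.00839). tmem37.L was above the midpoint, at 1.93 (SE 0.12, adjusted p = 3.21e-06), and its medial pools were the highest of the 6. Outside the 14 pairs, aldh1a2 was below the midpoint in both copies, at -2.31 (SE 0.11, adjusted p = 4.34e-07) for L and -1.36 (SE 0.16, adjusted p = 0.000187) for S, and so were cthrc1, at -1.43 (SE 0.15, adjusted p = 9.03e-05) for L and -0.89 (SE 0.10, adjusted p = 0.000168) for S, and ndnf, at -0.78 (SE 0.09, adjusted p = 0.000203) for L and -0.56 (SE 0.08, adjusted p = 0.00118) for S. adamts15.S and b4galt3l1.S stood above it, at 2.09 (SE 0.18, adjusted p = 2.81e-05) and 1.27 (SE 0.13, adjusted p = 6.94e-05).

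Other calls did not hold in every fit that leaves out 1 library, each of which also has fewer residual degrees of freedom. Of the 32 calls, 22 were made in all 6 such fits, and 10 were lost in at least 1 of them. Among the 14 pairs these were adcyap1.S at 1.34 (SE 0.35, adjusted p = 0.0319), olfml2a.L at 0.51 (SE 0.12, adjusted p = 0.0165), sgcg.L at -3.12 (SE 0.50, adjusted p = 0.00202), tmc3.L at 0.60 (SE 0.15, adjusted p = 0.0238) and tmc3.S at 1.1 (SE 0.26, adjusted p = 0.0219). Their largest adjusted p with 1 library left out was 0.189 for adcyap1.S (without distal pool 1), 0.106 for olfml2a.L (without medial pool 1), 0.104 for sgcg.L (without distal pool 1), 0.126 for tmc3.L and 0.0914 for tmc3.S (both without distal pool 1). Except for adcyap1.S, tmc3.L and tmc3.S, which DESeq2 did not call, these calls were also made by DESeq2. The others lost were camk2b.S, mcub.L, ptprt.L, rarres1.L and sulf2.L, of which mcub.L was called in 0 of the 6 fits; tmc3.L, tmc3.S, camk2b.S and ptprt.L were called in 1 each. Both copies of tmc3 were above the midpoint, the distal-low L copy and the distal-high S copy alike. Both copies were called in 8 pairs, in 5 of them in the same direction, 1 copy in 16 pairs and neither in 14.

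The balance between the copies of a pair was tested in the same way. Counts of L and S were fitted together, with the library as a block and the counted length as an offset, and the log2 L to S ratio in the medial segment was compared with the midpoint of the ends. The fit held 1195 named pairs, and p-values were adjusted over all of them. This ratio was called in 32.2% of the 939 pairs with both copies listed for distal against proximal (15.3% with a higher and 16.8% with a lower ratio) and in 21 of the 38 opposite pairs (55.3%). Other such pairs whose L to S log2 ratio differed by 1.6 or more between the ends were called in 54 of 110 cases (49.1%). They were not matched to the opposite pairs in the size of that difference or in abundance, so the 2 shares are given as a description. In 17 of the 21 called pairs the medial ratio was nearer the proximal value and in 4 nearer the distal value, compared with 42 and 12 of the 54 other pairs. Whether these splits differ was not tested.

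Among the 14 pairs, 7 were called in the L to S ratio, 6 nearer to proximal. The largest differences were in syt3, -2.53 (SE 0.33, adjusted p = 8.17e-05), and gpm6a, -2.43 (SE 0.30, adjusted p = 6.99e-05), where the medial segment had a smaller L share than the midpoint of the ends. olfml2a was at 1.05 (SE 0.16, adjusted p = 0.000327), with a larger L share in medial than at the midpoint. These 3 were called whichever library was left out. The calls of tmem37 at 1.37 (SE 0.38, adjusted p = 0.0145), khdrbs3 at -0.82 (SE 0.25, adjusted p = 0.024), sstr4 at -1.01 (SE 0.32, adjusted p = 0.025) and mgp at 1.4 (SE 0.45, adjusted p = 0.0288) were each lost in at least 1 such fit. Their largest adjusted p were 0.06 for tmem37 (without proximal pool 2), 0.0959 for khdrbs3 (without medial pool 2), 0.139 for sstr4 (without distal pool 1) and 0.341 for mgp (without medial pool 2). By limma, the calls of sstr4 and mgp were lost. Of these 7 called pairs, mgp was the one whose medial ratio was nearer the distal value. Among the others, adamts15 at -2.17 (SE 0.24, adjusted p = 3.03e-05), sulf2 at -1.4 (SE 0.19, adjusted p = 0.00174) and dlc1 at -1.23 (SE 0.14, adjusted p = 3.03e-05) were called in all 6 fits, as were 13 of the 21 pairs in all, while camk2b, cd34, cthrc1 and ppm1l were not. The plot of medial ratios gives all 45 values.

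**Figure D4:**
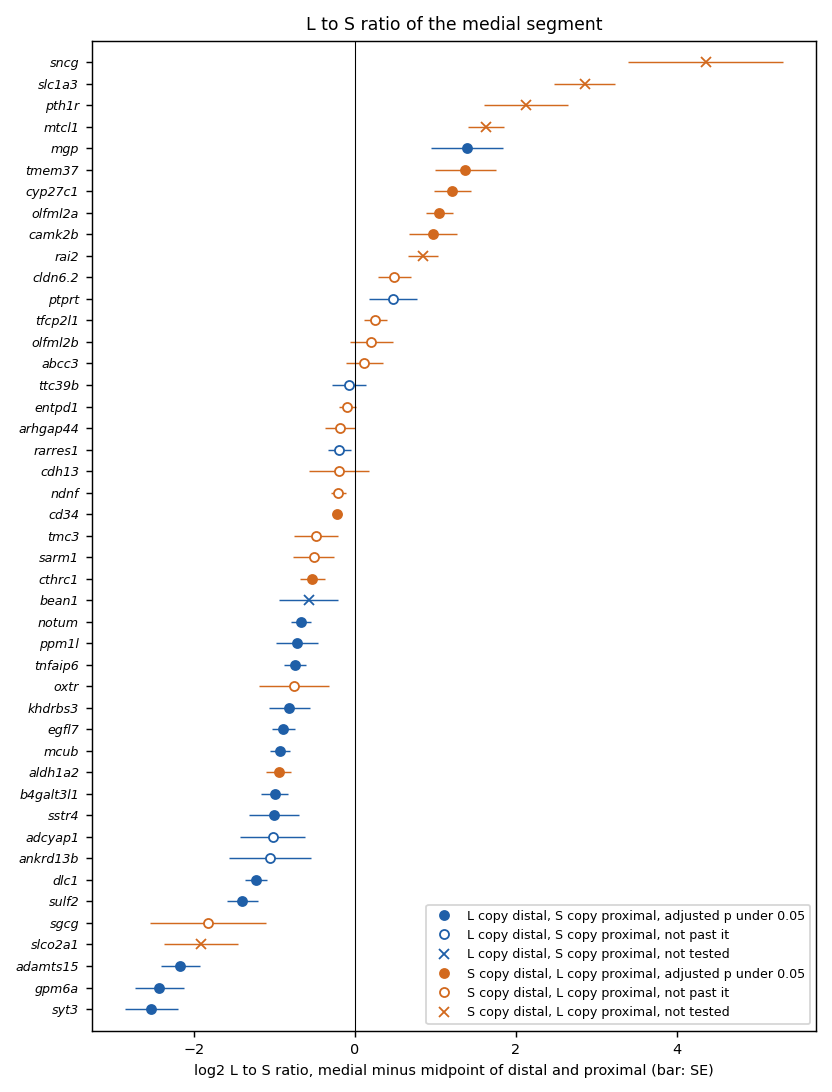
Log2 L to S ratio in the medial segment minus the midpoint of distal and proximal for the 45 pairs, with the SE as bars; blue pairs have the L copy high in distal, orange pairs the S copy, filled points have an adjusted p under 0.05, and crosses mark the 7 pairs not tested. Among the filled points, blue pairs lie left of 0 except mgp, and orange pairs lie right of 0 except cd34, cthrc1 and aldh1a2; a medial ratio near the proximal end puts blue pairs left and orange pairs right.

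Levels of L and S were also compared per length in the medial segment. The copies differed in 82.2% of the 939 pairs (52.8% with L and 29.4% with S higher), and in 31 of the 38 opposite pairs, with L higher in 19 and S higher in 12. The median absolute log2 difference per length was 1.15 in the 38 pairs and 0.82 in the 939. The widest gap favouring L was in tmem37, where the log2 L to S ratio per length was 5.02 (SE 0.19, adjusted p = 2.54e-11), and cyp27c1 had the widest gap in favour of S, -5.88 (SE 0.10, adjusted p = 1.38e-14). Of the 14 pairs, 11 were called. L was higher in khdrbs3 at 3.27 (SE 0.16, adjusted p = 3.39e-10), sstr4 at 2.94 (SE 0.16, adjusted p = 1.53e-09), olfml2a at 2.94 (SE 0.12, adjusted p = 9.55e-11), abcc3 at 2.68 (SE 0.16, adjusted p = 4.65e-09), tmc3 at 2.07 (SE 0.17, adjusted p = 6.24e-08) and cdh13 at 1.13 (SE 0.27, adjusted p = 0.00155). S was higher in oxtr at -2.55 (SE 0.32, adjusted p = 7.37e-06), syt3 at -2.27 (SE 0.27, adjusted p = 3.35e-06), sgcg at -1.74 (SE 0.64, adjusted p = 0.0229) and gpm6a at -1.18 (SE 0.23, adjusted p = 0.000357). For sgcg the adjusted p was 0.162 without medial pool 1. The call in gpm6a rests on the counted length, which is 4157 bases for L and 1718 bases for S: without division by length the log2 ratio was 0.095. No call was made for adcyap1 at 0.27 (SE 0.26, adjusted p = 0.351), ankrd13b at -0.88 (SE 0.39, adjusted p = 0.0506) and mgp at -0.30 (SE 0.35, adjusted p = 0.426).

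Abundance was set beside that of the other 1123 eligible pairs as a description, since it is built from the same counts as the rule and its minimum of 1 CPM. The opposite pairs were less abundant: the median of the mean pair CPM was 6.69 against 24.0 in the other pairs, and that of the lower copy was 3.30 against 14.9 CPM. A library with fewer than 10 counts occurred in 24 of the 90 copies (26.7%) and in 9.84% of the other copies. The higher copy exceeded the lower by a median of 2.04-fold, against 1.70-fold in the others, and it was the L copy in 64.4% and 62.2% of pairs. When L and S were added up, distal and proximal sums lay within 2-fold of each other in 36 of the 45 pairs (80.0%); that opposite copies offset each other in the sum follows from the rule. For example, gpm6a summed to 43.4 CPM in distal and 13 CPM in proximal pools, whereas ankrd13b summed to 2.28 CPM in distal and 1.98 CPM in proximal pools.

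Position separated the opposite pairs little from the rest. L and S copies lay on chromosomes of the same number in 42 of the 45 pairs; ptprt.L and sncg.S lay on unplaced scaffolds, and the copies of dlc1 were on chromosomes 1L and 3S, so their status as homeologs is uncertain. The longer copy was 1.5 times the shorter or more in 13 pairs (28.9%), against 25.6% of the others. Exons overlapped another annotated gene in 6 of the 90 copies (6.67%), namely cdh13.L, ptprt.S, camk2b.L, pth1r.S, b4galt3l1.L and egfl7.L, against 7.88%. By Entrez number, 83 of the 90 copies were found in the RefSeq annotation of assembly Xenopus_laevis_v10.1, and 82 had the same symbol there. The exception was camk2b.S, whose entry has the symbol camk2a.S, so it is uncertain whether camk2b.L and camk2b.S are copies of 1 gene. The nearest expressed gene had a log2 ratio of the same sign in 52 of the 90 copies (57.8%) and in 56.8% of the other copies. Next to sstr4, the thrombomodulin gene thbd had log2 ratios of -1.94 on the L and -1.81 on the S chromosome, so that the neighbours ran alike while sstr4.L and sstr4.S did not.

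Relatives of the 14 genes could be looked up only where they had a name, and names come from genes the authors called. Members included, 4 of 9 genes in the PACAP and VIP list and 3 of 6 in the oxytocin and vasopressin list had one. So did 4 of 7 in the somatostatin list and 6 of 12 in the dystrophin and sarcoglycan list. The directions below are those of named copies alone. In the PACAP and VIP family, all 4 copies tested outside the set fell in distal: vipr1.S averaged 0.358 CPM in distal and 6.54 CPM in proximal pools, a log2 ratio of -4.23 (SE 0.36, adjusted p = 8.65e-06), and vipr1.L, which like it encodes a PACAP and VIP receptor, had -3.42 (SE 0.31, adjusted p = 6.64e-05). Of the oxytocin and vasopressin receptors, avpr1a.S rose with a log2 ratio of 1.12 (SE 0.22, adjusted p = 0.0025) and avpr2.S fell with -1.21 (SE 0.24, adjusted p = 0.00305), a call lost without distal pool 1 (-0.87, adjusted p = 0.0668). Both named somatostatin receptor copies that were called fell, of 3 tested, and had at most 2 counts in a distal pool; without distal pool 1, sstr2.L was at -2.9 (adjusted p = 0.127). Of 7 copies tested outside the set in the dystrophin and sarcoglycan list, 5 rose and 2 fell. The sarcoglycan copy sgcd.L averaged 64.6 CPM in distal and 14.8 CPM in proximal pools, with a log2 ratio of 2.06 (SE 0.16, adjusted p = 1.15e-05). For sgcd.S the ratio was 2.76 (SE 0.28, adjusted p = 2.06e-05), whereas sgca.L had -4.03 (SE 0.53, adjusted p = 0.000155). As a background, 39.3% of all named genes were called higher in distal and 49.0% lower, because the names come from genes called by the authors. These adjusted p-values are from the quasi-likelihood test over all 27007 genes.

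Named copies of adhesion, matrix and membrane families were mixed. Members included, names covered 9 of 15 cadherin genes, 7 of 9 olfactomedin-like genes and 4 of 16 synaptotagmin genes. They covered 5 of 9 calcium channel gamma genes, 3 of 6 Gla protein genes, 2 of 9 ABCC transporter genes and 2 of 8 transmembrane channel-like genes. Among cadherins 3 of 13 copies rose and 10 fell; cdh20.S averaged 21.8 CPM in distal and 0.241 CPM in proximal pools, with a log2 ratio of 6.85 (SE 0.34, adjusted p = 9.57e-08), and cdh10.L and cdh10.S had no counts in distal and averaged 0.771 and 0.648 CPM in proximal pools. All 6 olfactomedin-like copies fell, among them olfml3.L at -1.66 (SE 0.10, adjusted p = 4.53e-07) and olfml3.S at -1.6 (SE 0.10, adjusted p = 6.2e-07), a pair whose copies ran alike. All 3 named synaptotagmin copies outside the set rose, led by syt15.S at 2.46 (SE 0.34, adjusted p = 0.000245). Of 4 calcium channel gamma copies 3 rose and 1 fell, with cacng5.L at 2.76 CPM in distal and 1 count in each proximal pool (adjusted p = 1.32e-05). Both copies of abcc5 fell, at -0.83 (SE 0.10, adjusted p = 5.28e-05) for L and -0.86 (SE 0.11, adjusted p = 0.000111) for S. Both Gla protein copies rose, with gas6.L at 0.97 (SE 0.14, adjusted p = 0.000426) and pros1.S at 0.44 (SE 0.09, adjusted p = 0.00363). The single copies tested in the remaining families were tmc7.L, which rose by 0.91 (SE 0.26, adjusted p = 0.0222), gpm6b.S, which had -0.39 (SE 0.09, adjusted p = 0.00654), and khdrbs2.L, which had -1.24 (SE 0.31, adjusted p = 0.0109). Of the 29 relatives with the strongest calls in their families, 20 kept their call in every fit that tested them, whichever library was left out, and 9 did not. Without distal pool 1 the calls of syt16.L (0.95, adjusted p = 0.109), syt1.L (1.18, adjusted p = 0.0956), gpm6b.S (-0.41, adjusted p = 0.0603), tmc7.L (1.05, adjusted p = 0.0604), khdrbs2.L (-1.1, adjusted p = 0.119), cacng4.L (3.28, adjusted p = 0.0609) and cacng7.S (-3.28, adjusted p = 0.0527) were lost. Without proximal pool 2, syt16.L (0.95, adjusted p = 0.122), syt1.L (0.79, adjusted p = 0.296), tmc7.L (0.63, adjusted p = 0.248), khdrbs2.L (-1.37, adjusted p = 0.0515) and cacng4.L (3.05, adjusted p = 0.0985) lost theirs, and without distal pool 2 so did syt1.L (0.91, adjusted p = 0.159), gpm6b.S (-0.36, adjusted p = 0.0819) and tmc7.L (0.77, adjusted p = 0.138). The call of syt1.L was also lost without proximal pool 1 (1.22, adjusted p = 0.0826), and none of these 9 changed sign.

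Markers of blood and epidermis also differed between segments. Of 19 blood markers listed, 14 genes had a name (23 copies). All 23 copies were called lower in distal, against 49.0% of all named genes. They summed to 2598 and 1294 CPM in distal, 52290 and 61080 CPM in medial and 29160 and 41290 CPM in proximal pools. Of 14 epidermis markers listed, 5 genes had a name (9 copies). Their sums were 451 and 453 CPM in distal, 271 and 178 CPM in medial and 241 and 226 CPM in proximal pools. Of the 9 copies, 7 were called higher in distal and none lower, against 39.3% and 49.0% of all named genes. The part of these cells in the levels of the 45 pairs was not tested.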

How the data were processed

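Stage 51 hind limb buds were profiled by RNA sequencing in 6 libraries, 2 pools for each of 3 segments. The authors counted fragments per gene with featureCounts 2.0.1 in paired mode, per the file headers, and the deposited values are raw counts; fragments that fitted several places or genes were not counted and strand was not used. The submitters' processing notes also name Trimmomatic 0.39, HISAT2 2.2.1, SAMtools 1.10 and DESeq2 1.30.1. Between 75.7% and 78.2% of fragments were assigned and 5.51% to 7.05% mapped to several places. The genome build is not given in the sources used here. A second table, deposited by the authors, gives log2 fold changes and adjusted p-values of genes they called; it was used for gene names and, through them, to choose the eligible pairs. Medial tests were counted only for pairs whose copies it lists for distal against proximal, a restriction added after seeing the data.

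The members and gene lists were chosen with earlier results of these data known. The 14 pairs described singly were listed with the rule, the 4 pairs closest outside the threshold were added, and relatives were named as the up to 3 copies per family with the largest called log2 ratio. Counts passing filterByExpr (minimum count 10, minimum total 15) were scaled by TMM; edgeR 4.0.16 under R 4.3.3 gave robust quasi-likelihood tests, with all 6 libraries together with segment as the factor, 3 residual degrees of freedom and a common coefficient of variation of 0.0948. Calls have a Benjamini-Hochberg adjusted p under 0.05. The spread of each gene was shared across segments. Between pools, chi-square per degree of freedom, which also rises with depth, was 2.89 in distal, 12.35 in medial and 7.95 in proximal. All 90 copies passed the filter. L and S counts of 1195 pairs were also fitted jointly with the library as a block and length as an offset. The medial contrast and the medial L to S ratio were tested on simulated data. These had equal distal and proximal levels, a common spread, and changes only in features with higher counts. They therefore do not cover low copies or the shift that the choice of pairs can cause. Alternatives were DESeq2 1.42.0, limma 3.58.1, other scaling and filters, a replicate block and leaving out each library; division by length was dropped as an alternative chosen after seeing the data.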

Additional observations from a re-analysis of the deposited data

How the results depend on the processing

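Counts of calls kept within 1.5 times of the values given, with these exceptions. The rule found 28 pairs with a threshold of 1 and 23 with a minimum of 5 CPM, all of them among the 45; a pseudocount of 0.5 or 1 CPM left 38 and 31 pairs, TMM scaling gave 43, of which 40 were shared, and leaving out 1 library gave 41 to 42. In each pool pair alone the rule found 38 and 41 pairs, and 25 of the 45 met it in both. Distal against proximal, the 7975 calls ranged between 4598 (without distal pool 1) and 9378 when 1 library was left out, with 5220 without distal pool 2 and 4906 without proximal pool 2. The medial contrast ranged between 1552 and 3206 genes and 24 to 30 of the copies tested, the medial L to S ratio between 344 and 408 pairs and 17 to 20 of the opposite pairs, and the level per length between 913 and 981 pairs and 27 to 32 of them. The ranges for pairs are over all pairs fitted and not over the 939. Over all 1195 pairs, the full fit called 414 in the medial ratio and 980 in level per length. DESeq2 called 26 of the copies tested in the medial contrast and limma 17 opposite pairs in the medial ratio. Without division by length the gpm6a level ratio reversed to 0.095, without a call, and 29 of the 31 called pairs kept their call and direction. The 115 called copies of the gene lists kept their sign with the RLE scaling and with DESeq2. No distal to proximal ratio of a member changed sign with the other scalings, the replicate block, DESeq2 or 1 library left out, and 65 values moved by more than their SE, all with 1 library left out.

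Pools 1 and 2 share a number between segments, and the labels do not say that a number marks shared limbs. Deviations of same-numbered pools correlated at 0.054 (distal and medial), 0.025 (distal and proximal) and 0.203 (medial and proximal), over genes. With the replicate number as a block, 8812 genes were called between distal and proximal. In the medial contrast 3515 genes and 39 of the copies tested were called. Over all pairs fitted, 446 were called in the medial ratio and 990 in level. Among the opposite pairs tested these numbers were 21 and 32. Depth limits the low copies: 24 of 90 had a library under 10 counts, among them 15 of the 28 copies described singly.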
